A study of Mus musculus with 21 samples.

Results

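The genes described are 31 that serve the synthesis of cholesterol and of fatty acids, chosen by name and pathway. Earlier results of these data were known when they were chosen. They are 31 of 23569 genes measured. The sterol branch holds 21 of them and the fatty acid branch 10. Of the 31, 30 had a mean of at least 1 TPM (a transcript's length-corrected share of its library) over all libraries and were tested. The fatty acid elongase Elovl6 was not, and lay at 0.164 to 1.1 scaled TPM.

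RNA sequencing covered 21 libraries of peritoneal macrophages, taken from C57BL/6 mice without an eliciting agent and selected for the surface integrin CD11b. Of these, 9 libraries are wild type, 6 carry the label Lum-/- (loss of lumican) and 6 the label Bgn-/- (loss of biglycan, given as -/- or -/0 in the protocol). Both encode small proteoglycans of the matrix around cells, and the design asks how each of them alters the response of macrophages to ligands of 2 Toll-like receptors. LPS, the bacterial lipid that activates TLR4, was given at 100 ng/mL for 6 h, and CpG DNA, which activates TLR9, at 1 uM for 6 h. Wild-type wells received no protein, recombinant lumican or recombinant biglycan, at 10 ug/mL from 1 h before the stimulus. Of the wells labelled Lum-/- some had lumican and some no protein, and of those labelled Bgn-/- some had biglycan and some none. For wells given protein alone no dose or time is stated. Every genotype label, protein and stimulus combination has 1 library, so 7 libraries each had no stimulus, LPS or CpG. The protocol names 10 mice and ties no well to an animal, so p-values measure only the spread between these wells, which may be technical, and a genotype label cannot be told apart from its cell preparation. All wells stood overnight in medium with charcoal-stripped serum, which is depleted of lipids, and were free of serum during the treatment.

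Cholesterol is built from acetyl-CoA through mevalonate, the isoprenoid farnesyl pyrophosphate and squalene, which is closed into lanosterol and trimmed to cholesterol. Fatty acids are built from the same acetyl-CoA through malonyl-CoA, and are then elongated and desaturated. Both branches are known targets of the SREBP transcription factors. Srebf2 encodes the factor that mainly drives the sterol genes, and Srebf1 encodes the factors that mainly drive the fatty acid genes. When membrane cholesterol is high, the INSIG proteins hold the SREBP precursor in the endoplasmic reticulum. When it is low, the precursor moves to the Golgi, is cleaved, and its free domain enters the nucleus. In macrophages these genes are known to respond to sterol load and to Toll-like receptor signals.

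Promoter sequences are shown for 5 of the genes whose levels are described below, because members of 1 pathway moved apart and the sequences let their starts be compared. They run from 250 bases before to 50 after the annotated start, on the strand of the gene, from RefSeq on GRCm38.p6. Capitals mark, on either strand, the letters of 4 motifs that were searched. These are TCACNCCAC, a form of the sterol regulatory element that SREBPs bind, with CCAAT, the box of the factor NF-Y, with GGGCGG, the GC box of SP1, and with TCACGTGA, a form of the E-box. Insig1, Mvk and Fads2 were added after their values were seen. Hmgcs1 (chr13:119690101-119690400, plus strand) encodes the synthase that makes HMG-CoA. Insig1 (chr5:28071162-28071461, plus strand) encodes the sterol-dependent anchor of SREBP. Mvk (chr5:114444019-114444318, plus strand) encodes mevalonate kinase. Fasn (chr11:120824498-120824797, minus strand) encodes fatty acid synthase, and Fads2 (chr19:10101454-10101753, minus strand) the delta-6 desaturase of polyunsaturated fatty acids.
Hmgcs1: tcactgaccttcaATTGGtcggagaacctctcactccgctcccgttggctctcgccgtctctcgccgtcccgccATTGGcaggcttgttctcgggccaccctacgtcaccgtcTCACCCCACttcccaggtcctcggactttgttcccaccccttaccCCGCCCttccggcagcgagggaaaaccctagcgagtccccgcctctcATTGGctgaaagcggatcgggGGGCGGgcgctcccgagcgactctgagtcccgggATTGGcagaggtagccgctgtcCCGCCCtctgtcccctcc
Insig1: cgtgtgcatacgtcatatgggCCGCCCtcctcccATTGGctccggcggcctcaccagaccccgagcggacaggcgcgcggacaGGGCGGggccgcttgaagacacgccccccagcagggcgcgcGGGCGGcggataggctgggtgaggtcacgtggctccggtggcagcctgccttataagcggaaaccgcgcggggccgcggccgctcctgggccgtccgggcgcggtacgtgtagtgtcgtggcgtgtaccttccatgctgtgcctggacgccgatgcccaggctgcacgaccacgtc
Mvk: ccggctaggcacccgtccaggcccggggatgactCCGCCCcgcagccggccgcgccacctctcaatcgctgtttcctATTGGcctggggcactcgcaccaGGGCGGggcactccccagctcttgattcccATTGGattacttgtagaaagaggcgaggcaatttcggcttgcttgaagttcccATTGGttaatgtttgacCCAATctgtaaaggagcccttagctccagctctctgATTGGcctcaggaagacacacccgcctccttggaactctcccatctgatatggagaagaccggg
Fasn: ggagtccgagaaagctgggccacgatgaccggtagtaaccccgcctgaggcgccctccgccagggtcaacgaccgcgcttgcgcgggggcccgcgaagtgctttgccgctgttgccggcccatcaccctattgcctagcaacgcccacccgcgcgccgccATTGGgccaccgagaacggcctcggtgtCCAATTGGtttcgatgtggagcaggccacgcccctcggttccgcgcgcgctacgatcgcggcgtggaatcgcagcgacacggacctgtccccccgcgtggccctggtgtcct
Fads2: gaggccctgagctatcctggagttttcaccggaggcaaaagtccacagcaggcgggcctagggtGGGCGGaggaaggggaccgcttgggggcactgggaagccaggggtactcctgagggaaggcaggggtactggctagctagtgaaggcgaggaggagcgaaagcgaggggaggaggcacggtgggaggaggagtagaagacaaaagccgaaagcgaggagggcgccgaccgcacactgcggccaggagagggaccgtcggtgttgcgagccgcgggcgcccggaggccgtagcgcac

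The Hmgcs1 promoter held 1 match to the sterol element, 4 CCAAT boxes and 3 GC boxes. Mvk, which moved otherwise than Hmgcs1 after LPS (below), held 5 CCAAT boxes and 2 GC boxes. Insig1 held 1 CCAAT box and 3 GC boxes, Fasn 3 CCAAT boxes of which 1 pair overlaps, and Fads2 a single GC box. A RefSeq promoter was matched by symbol for 24 of the 31 genes, and not for Fdps, Sqle, Fdft1, Scd2, Fads1, Stard4 and Scd1. CCAAT was in the promoters of 20 of the 24 genes (83.3%), 16 of 17 in the sterol branch and 4 of 7 in the fatty acid branch, against 41.1% of all 27025 genes with a promoter. The GC box was in 20 of 24 (83.3%) against 38.2% of all genes. The sterol element was in 1 of 24 (4.17%) against 1.44%, and the E-box in 0 of 24 against 1.12%. The 27025 genes include genes not expressed in these cells, and no share is given for the 11773 genes tested. A match describes letters in this window and not a bound site, and no match says only that these letters are not in it.

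The labels and libraries were checked before the comparisons. Lum was measured at 0.823 to 14.1 TPM in the libraries labelled Lum-/- against 0 to 1.40 in wild type, and was higher under each shared treatment. Bgn was measured at 0 to 3.49 TPM in those labelled Bgn-/- against 0.327 to 1.52, and overlapped wild type. The values thus show no loss of either transcript. They do not show which part of a transcript was read, and the labels are used below as labels only. 3 libraries stand apart. The library labelled Lum-/- with no treatment and that labelled Bgn-/- with biglycan alone were the closest of 210 pairs, with a median absolute log2 difference of 0.0633 over 2582 genes, and 39608 and 39597 transcripts above 0 against 50214 to 58759 elsewhere. The untreated wild-type library, the third, is low in mast cell genes for wild type. They summed to 4.83 TPM in it, against 88.1 to 203 in the other wild-type libraries. Libraries under the Lum-/- and Bgn-/- labels without stimulus or with CpG were also low, at 5.67 to 18.7 TPM. All 8 macrophage markers were present in every library, with summed TPM of 29600 to 44035 without stimulus, 11553 to 15335 after LPS and 32684 to 37643 after CpG. Mast cell genes summed to 4.83 to 90.7 TPM without stimulus, 140 to 203 after LPS and 5.67 to 122 after CpG. Hdc alone made up 116 to 166 of the sum after LPS. All marker values here are TPM as deposited. On that scale, in wild type, Cpa3 (5.16 to 6.63 against 8.87 to 11.1 TPM) and Tpsb2 (25.9 to 29.5 against 31.6 to 42.4) lay lower after LPS than after CpG. So did Mcpt4, Fcer1a and Ms4a2, while Cma1 (20.8 to 25.9 against 23.8 to 34.2) and Kit (1.14 to 2.09 against 1.36 to 2.00) overlapped. Division by the scale factors given below puts Tpsb2 higher after LPS and leaves Cpa3 overlapping. Neutrophil genes, nearly all S100a8, summed to 106 to 159 TPM without stimulus, 308 to 387 after LPS and 142 to 199 after CpG, with Ly6g, Mpo and Elane never above 0.5. Dendritic cell genes summed to 8.31 to 14.5, 1.83 to 3.71 and 3.87 to 7.40 TPM in the same order. B cell genes summed to 372 to 872 TPM and T cell genes to at most 6.84. Mesothelial and fibroblast genes reached at most 3.01 TPM and the 3 measured adipocyte genes at most 2.89. The part of other cells in the results below was not tested. In bulk RNA, fewer cells of a type and less RNA per cell cannot be told apart.

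The deposited values carry no counts, so the depth behind them is unknown. The scale between libraries bears on every LPS value. The 10 most abundant genes took 24.6 to 27.3% of all TPM after LPS, against 19.0 to 24.3% without stimulus and 21.1 to 25.7% after CpG. The median-of-ratios factor, which divides TPM into the scaled TPM used below, was 0.619 to 0.749 after LPS, against 1.19 to 1.27 without stimulus and 1.12 to 1.25 after CpG. As deposited, TPM shifts the median of all genes tested to -0.71 for LPS against no stimulus and to -0.69 for LPS against CpG on the log2 scale, from 0.01 and -0.01 on scaled TPM. Each direction that depends on this choice is given with both scales.

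**Figure D1:**
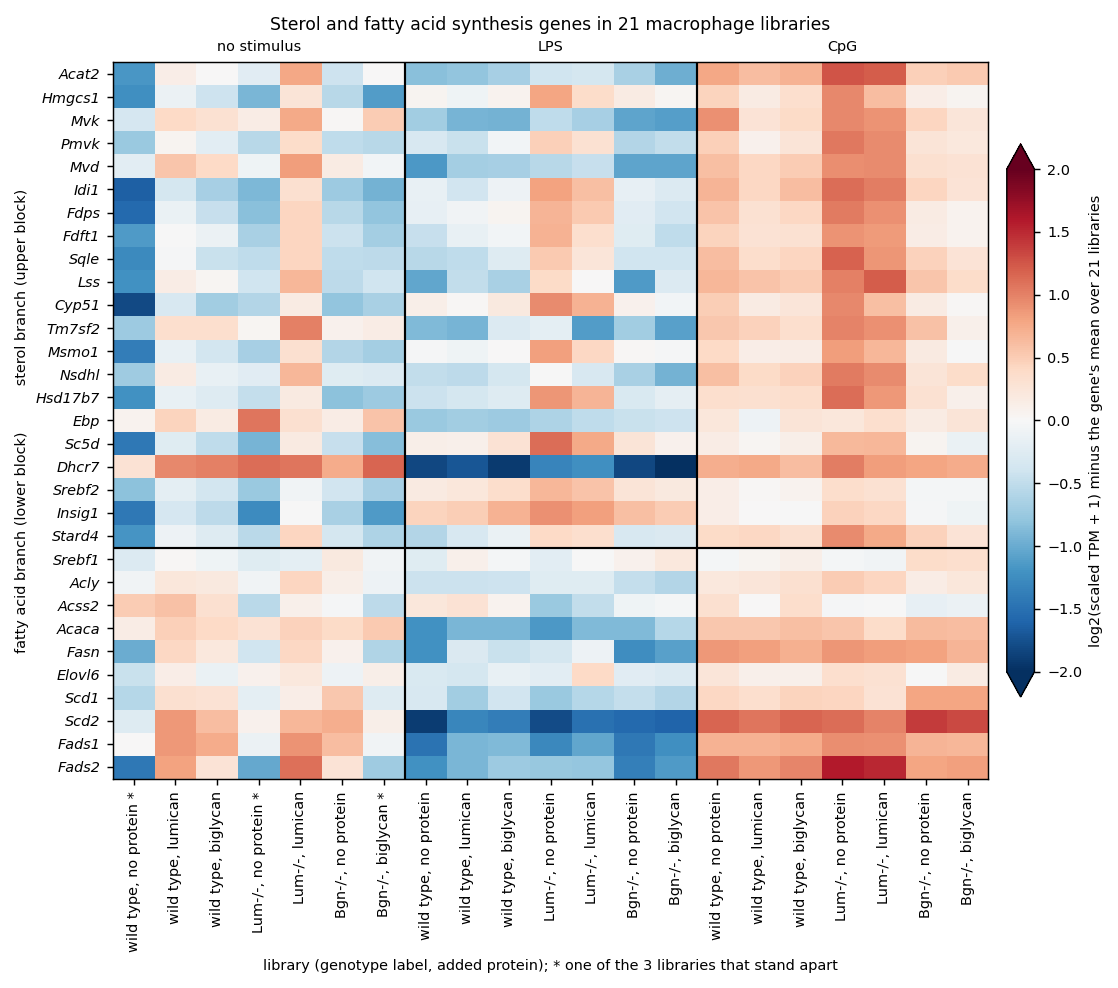
Each row is 1 of the 31 genes in pathway order and each column 1 of the 21 libraries, grouped by stimulus. Colour is the gene's log2(scaled TPM + 1) minus its mean over all libraries, and an asterisk marks the 3 libraries that stand apart. In the block for LPS, Dhcr7, Scd2, Fads1 and Acaca are low in all 7 libraries while Insig1 and Srebf2 are high; on TPM as deposited the Srebf2 difference against no stimulus is -0.05.

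After LPS, 7 of 9 fatty acid genes tested and 15 of 21 sterol genes were lower than after CpG, while the regulators Srebf2 and Insig1 were higher on scaled TPM. Of 30 genes tested, 22 were lower and 2 higher after LPS at an adjusted p under 0.05 (limma on log2(scaled TPM + 1), Benjamini-Hochberg over all 11773 genes tested), where 37% of all genes tested were lower and 36.3% higher. The median log2 difference was -0.61 in the sterol branch and -1.42 in the fatty acid branch, and -0.01 over all genes tested. On TPM as deposited, 29 were lower and 0 higher, against 73.5% and 11.6% of all genes. In 14 of the 30 every LPS library lay below every CpG library, which held for 25.3% of all genes, and in 0 every LPS library lay above, which held for 27.3%.

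In the fatty acid branch, Scd2, a stearoyl-CoA desaturase that makes monounsaturated fatty acids, had the largest difference. It lay at 21.7, 28 and 33.2 scaled TPM (lowest, median and highest of 7 libraries) after LPS, at 167, 188 and 222 after CpG and at 70.2, 130 and 154 without stimulus. The 3 ranges do not overlap. Scd2 was 6.55-fold lower after LPS than after CpG, a log2 difference of -2.71 (SE 0.13, adjusted p 5.59e-10), and lower in 7 of 7 matched pairs. All folds here are on the log2(scaled TPM + 1) scale, which understates the change of low genes. Its close paralog Scd1 lay at 22.6, 25.6 and 30.7 after LPS and at 47.6, 52.4 and 67.7 after CpG, also apart, and was 2.05-fold lower (-1.04, SE 0.15, adjusted p 2.28e-05). The estimate divides reads that fit both paralogs, so the split between them is less certain than their sum. The ratio of Scd2 to Scd1 TPM within a library, which no scaling between libraries touches, was 0.708 to 1.41 after LPS, 3.12 to 3.64 after CpG and 2.47 to 3.16 without stimulus.

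The desaturases of polyunsaturated fatty acids showed the same order. Fads1, the delta-5 desaturase, lay at 7.56, 9.14 and 12.0 scaled TPM after LPS and at 36.7, 37.5 and 44.3 after CpG, a log2 difference of -1.90 (SE 0.14, adjusted p 2.77e-08). Fads2 lay at 3.24, 4.82 and 5.66 after LPS and at 18, 20.6 and 31.8 after CpG (-2.04, SE 0.25, adjusted p 5.10e-06). For both genes the lowest CpG library was above the highest LPS library. Fasn lay at 9.16, 16.5 and 21.4 after LPS and in a narrow band of 37.3, 41.1 and 43.0 after CpG, 2.68-fold lower after LPS (-1.42, SE 0.18, adjusted p 9.58e-06). Acaca, which makes malonyl-CoA, differed by -1.45 (SE 0.05) and Acly, which supplies cytosolic acetyl-CoA from citrate, by -0.70, both called. Acss2, which makes acetyl-CoA from acetate, was not called when its transcripts were summed. It lay at 19.8, 32.9 and 41.8 after LPS and 30.2, 33.9 and 43.6 after CpG (-0.15, SE 0.12, adjusted p 0.282). The most abundant Acss2 transcript, with 40.5% of the gene's TPM, was lower after LPS (-1.19, SE 0.08, limma adjusted p 3.04e-08). Srebf1 was not called, at 71.5, 84.3 and 98.2 after LPS and 80.5, 87.5 and 109 after CpG, with overlapping ranges (-0.10, SE 0.05, adjusted p 0.109).

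In the sterol branch the largest difference was at a late step. Dhcr7, the reductase that makes cholesterol from 7-dehydrocholesterol, lay at 2.02, 2.6 and 4.38 scaled TPM after LPS and at 18.4, 20.4 and 24.9 after CpG, with no overlap. It was 5.58-fold lower after LPS (-2.48, SE 0.09, adjusted p 5.31e-11). Acat2, which joins acetyl-CoA units at the head of the pathway, lay at 6.91, 8.92 and 11.3 after LPS and at 20.8, 24.4 and 36.3 after CpG (-1.46, SE 0.11, adjusted p 4.35e-08). The kinase Mvk and the decarboxylase Mvd, which act between mevalonate and the isoprenoids, differed by -1.41 and -1.35. The lanosterol synthase Lss and the sterol reductase Tm7sf2 differed by -1.12 and -1.31. Sqle, the squalene epoxidase, differed by less and its ranges overlapped, at 15.9, 18 and 34.6 after LPS and 29.2, 33.4 and 55.5 after CpG (-0.78, SE 0.11, adjusted p 2.55e-05). By step, 6 of 7 genes from Acat2 to Fdps and 8 of 11 from Fdft1 to Dhcr7 were lower.

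4 sterol synthesis genes were not called between the stimuli. Hmgcs1 lay at 54.0, 60.7 and 101 scaled TPM after LPS and at 59.9, 73.0 and 113 after CpG (-0.19, SE 0.14, adjusted p 0.227). Cyp51, the lanosterol demethylase, lay at 40.4, 45.6 and 82.5 after LPS and 42.9, 50.3 and 83.3 after CpG (-0.09, SE 0.13, adjusted p 0.572). Both genes overlap over most of their range. The methyl oxidase Msmo1 and the desaturase Sc5d differed by -0.17 and 0.16. Without the 3 libraries that stand apart, which had no stimulus, the differences between LPS and CpG stayed the same but some calls changed. Hmgcs1 (-0.19), Msmo1 (-0.17) and Srebf1 (-0.10) were then called lower and Sc5d (0.16) called higher.

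Insig1 lay at 137, 152 and 189 scaled TPM after LPS and at 94.6, 100.1 and 137 after CpG, 1.43-fold higher after LPS (0.52, SE 0.13, adjusted p 2.69e-03), but -0.26 on TPM as deposited and -0.07 after quantile normalization. Srebf2 lay at 82.4, 87.2 and 116 after LPS and at 70.8, 77.1 and 93.1 after CpG (0.23, SE 0.09, adjusted p 0.0325), but -0.54 on TPM as deposited and -0.22 after quantile normalization. Both were higher in 7 of 7 matched pairs on scaled TPM, as were 34% of all genes, while 23 of the 30 were lower in all 7, as were 33.9% of all genes. The Srebf2 call was lost, with adjusted p 0.0515 to 0.0905, when any of 7 libraries was left out. These were the LPS libraries labelled Lum-/- with no protein or lumican and wild type with biglycan, and the CpG libraries labelled Lum-/- with lumican, labelled Bgn-/- with no protein or biglycan, and wild type with lumican. Stard4, a cytosolic sterol carrier, differed the other way, by -0.61. The ratio of Insig1 to Stard4 TPM within a library was 8.19 to 12.6 after LPS, 4.13 to 4.93 after CpG and 3.67 to 5.35 without stimulus.

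**Figure D2:**
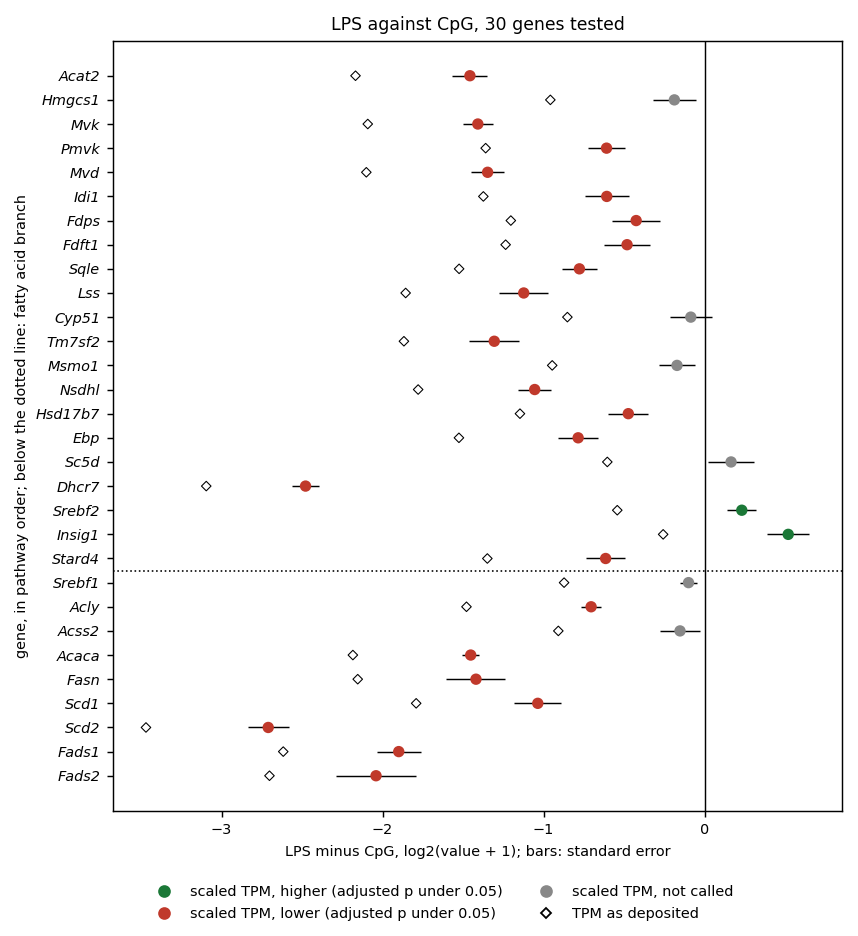
The x axis is the log2 difference of LPS minus CpG with its standard error, for the 30 genes tested in pathway order. Circles are scaled TPM, coloured by call, and open diamonds TPM as deposited. On scaled TPM 22 genes are lower and Srebf2 and Insig1 higher; on TPM as deposited every diamond lies below 0.

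CpG raised genes of both branches. Against no stimulus 24 of 30 genes rose and 0 fell, where 17.8% of all genes tested rose and 17.5% fell. The rise took in 17 of 21 sterol genes, with a median log2 difference of 0.76, and 7 of 9 fatty acid genes, with a median of 0.30. In 21 of the 30 every one of the 7 matched pairs was higher with CpG, against 13.3% of all genes. The unstimulated libraries include the 3 that stand apart. Without those 3, 19 genes rose and 0 fell, against 19% and 17.9% of all genes, and Mvd, Acly, Acaca, Scd1 and Srebf1 lost the call. The same genes were not called on TPM as deposited with all libraries. In the fatty acid branch this left Fads2, Fasn and Scd2. Leaving out the untreated wild-type library alone made Dhcr7 lower with CpG (-0.22, adjusted p 0.0327).

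Idi1, which interconverts the isoprenoid building blocks, rose most among the sterol genes. It lay at 14.2, 27.6 and 58.2 scaled TPM without stimulus and at 56.1, 71.4 and 102 with CpG, 2.42-fold higher (1.27, SE 0.14, adjusted p 2.30e-05). The ranges overlap in 1 unstimulated library, lumican alone labelled Lum-/-. Hmgcs1 lay at 24.0, 38.9 and 68.8 without stimulus and rose 1.86-fold (0.90, SE 0.14, adjusted p 2.52e-04). Sqle lay at 9.32, 16.6 and 32.7 without stimulus and rose 1.90-fold (0.92, SE 0.11, adjusted p 4.97e-05). Cyp51 rose by 0.96, from 11.3, 26.7 and 47.3. The 3 libraries that stand apart held Hmgcs1 at 24.0 to 30.1 against 38.9 to 68.8 in the other 4 unstimulated libraries. Insig1 rose by 0.82 and Srebf2 by 0.54, and for Srebf2 every CpG library (70.8 to 93.1) lay above every unstimulated library (41.0 to 69.7). Mvk, Tm7sf2, Ebp and Dhcr7 were not called.

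Among fatty acid genes, Fads2 rose 2.11-fold with CpG (1.07, SE 0.25, adjusted p 4.72e-03). Without stimulus it lay at 3.10 to 5.73 scaled TPM in the 3 libraries that stand apart and at 12.2 to 22.5 in the other 4, so much of its spread lies between these libraries. Fasn rose 1.82-fold (0.86, SE 0.18, adjusted p 2.86e-03) from 11.0, 24.4 and 30.8, and Scd2 rose 1.65-fold (0.73, SE 0.13, adjusted p 7.92e-04). For Fasn and Scd2 every CpG library lay above every unstimulated library, as for Srebf2, 3 of 30 genes against 6.28% of all genes. Scd1 (0.43, adjusted p 0.0347), Acly (0.18) and Acaca (0.14) rose less. Fads1 and Acss2 were not called.

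With LPS, sterol genes moved both ways, in shares near those of all genes, and the fatty acid genes that changed fell. Against no stimulus, 9 genes rose and 14 fell on scaled TPM, where 38.9% of all genes tested rose and 38.4% fell. All 9 that rose are sterol genes, and TPM as deposited gave 1 rise (Insig1) and 22 falls, against 14% and 71.6% of all genes. In the sterol branch 7 genes fell and in the fatty acid branch 7 of 9. In wells without protein alone, whose unstimulated libraries include 2 of the 3 that stand apart, 13 rose, all in the sterol branch, and 8 fell. There 4 of 9 fatty acid genes fell, and Fasn (adjusted p 0.125), Fads2 (-0.39, adjusted p 0.370) and Scd1 (adjusted p 0.0911) were not called. The share of all genes called in these wells is not given, so these counts cannot be read against it. With all libraries, medians on scaled TPM were 0.20 in the sterol branch and -0.60 in the fatty acid branch, and 0.01 over all genes. Without the 3 libraries that stand apart, 8 rose and 15 fell, against 39.3% and 38.5%, as Hsd17b7 lost its call and Lss (-0.49) gained one. Comparisons of LPS and of CpG with no stimulus share the same 7 unstimulated libraries.

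Insig1 rose most, from 36.6, 63.1 and 99.3 scaled TPM without stimulus, 2.53-fold (1.34, SE 0.13, adjusted p 4.49e-07; 0.52 on TPM as deposited), and every LPS library lay above every unstimulated one. Srebf2 rose by 0.77, also with no overlap, but differed by -0.05 on TPM as deposited. Hmgcs1 (0.71), Idi1 (0.67), Fdps (0.54), which makes farnesyl pyrophosphate, Msmo1 (0.58) and Hsd17b7 (0.44) rose on scaled TPM and were at -0.10, -0.14, -0.29, -0.24 and -0.25 as deposited. Cyp51 (0.87) and Sc5d (0.92) rose, at 0.06 and 0.11 as deposited. For 8 of these 9 genes, all but Insig1, TPM as deposited gave no call of a rise.

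Dhcr7 fell most, from 14.5, 24.4 and 27.3 scaled TPM without stimulus to the low values above, 6.24-fold (-2.64, SE 0.09, adjusted p 1.40e-11; -3.31 as deposited). Scd2 fell by 1.99, Fads1 by 1.60, Acaca by 1.31, Mvk by 1.17 and Mvd by 1.06 on the log2 scale. In each of these 6 genes the highest LPS library lay below the lowest unstimulated one, and the same held for Ebp and Acly, 8 of 30 genes against 25.1% of all genes. Above every unstimulated library lay 2 of 30, Insig1 and Srebf2, against 26.6%. Fasn fell by 0.56 (adjusted p 0.0136), with overlapping ranges, and lost the call without the LPS and biglycan library labelled Bgn-/- (adjusted p 0.0563) or the wild-type biglycan-alone library (adjusted p 0.0593). Sqle, Lss, Pmvk, Fdft1, Stard4, Srebf1 and Acss2 were not called. With only the most abundant transcript of each gene, Acss2 fell (-1.33, limma adjusted p 6.93e-09) and Fdft1 rose (0.41, adjusted p 0.0240).

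**Figure D3:**
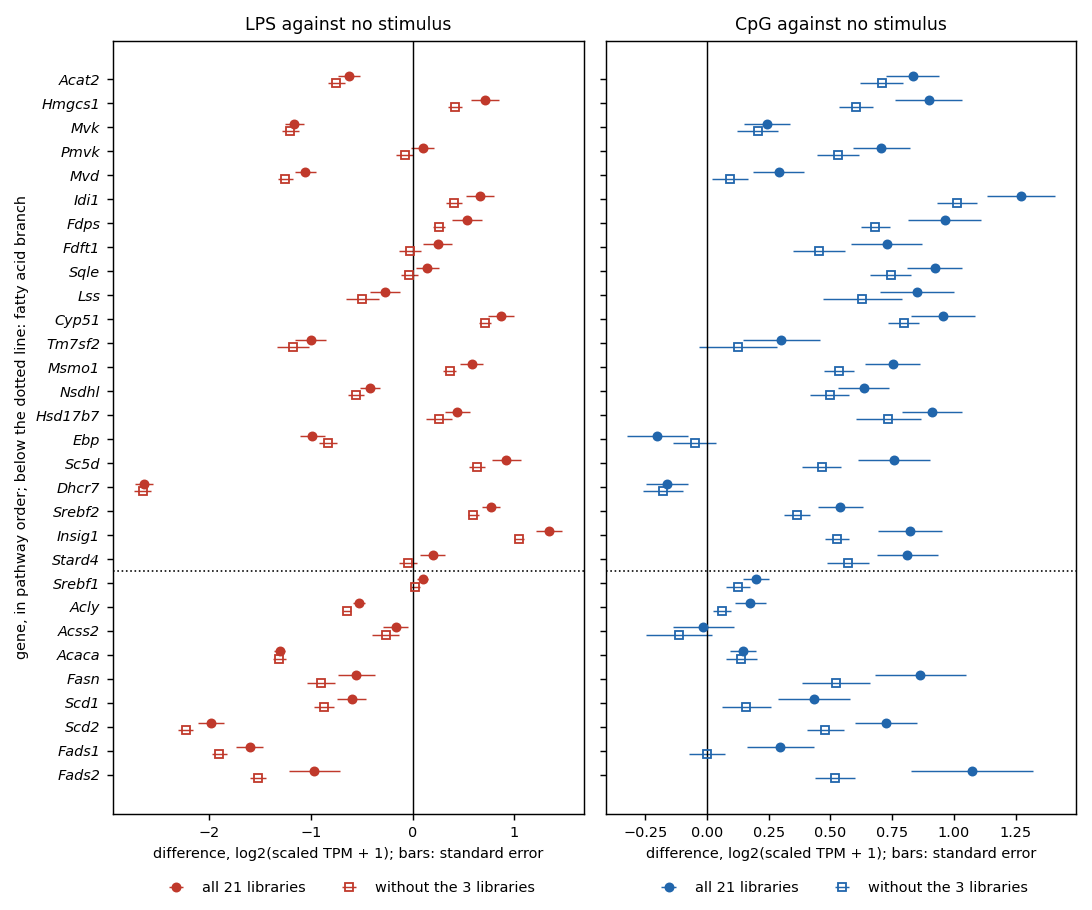
Log2 differences from no stimulus with standard errors are shown for LPS (left) and CpG (right), with all 21 libraries (filled circles) and without the 3 that stand apart (open squares). Insig1 lies highest and Dhcr7 lowest for LPS at 1.34 and -2.64, while with all libraries 24 genes rise for CpG; on TPM as deposited, only Insig1 rises for LPS.

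**Figure D4:**
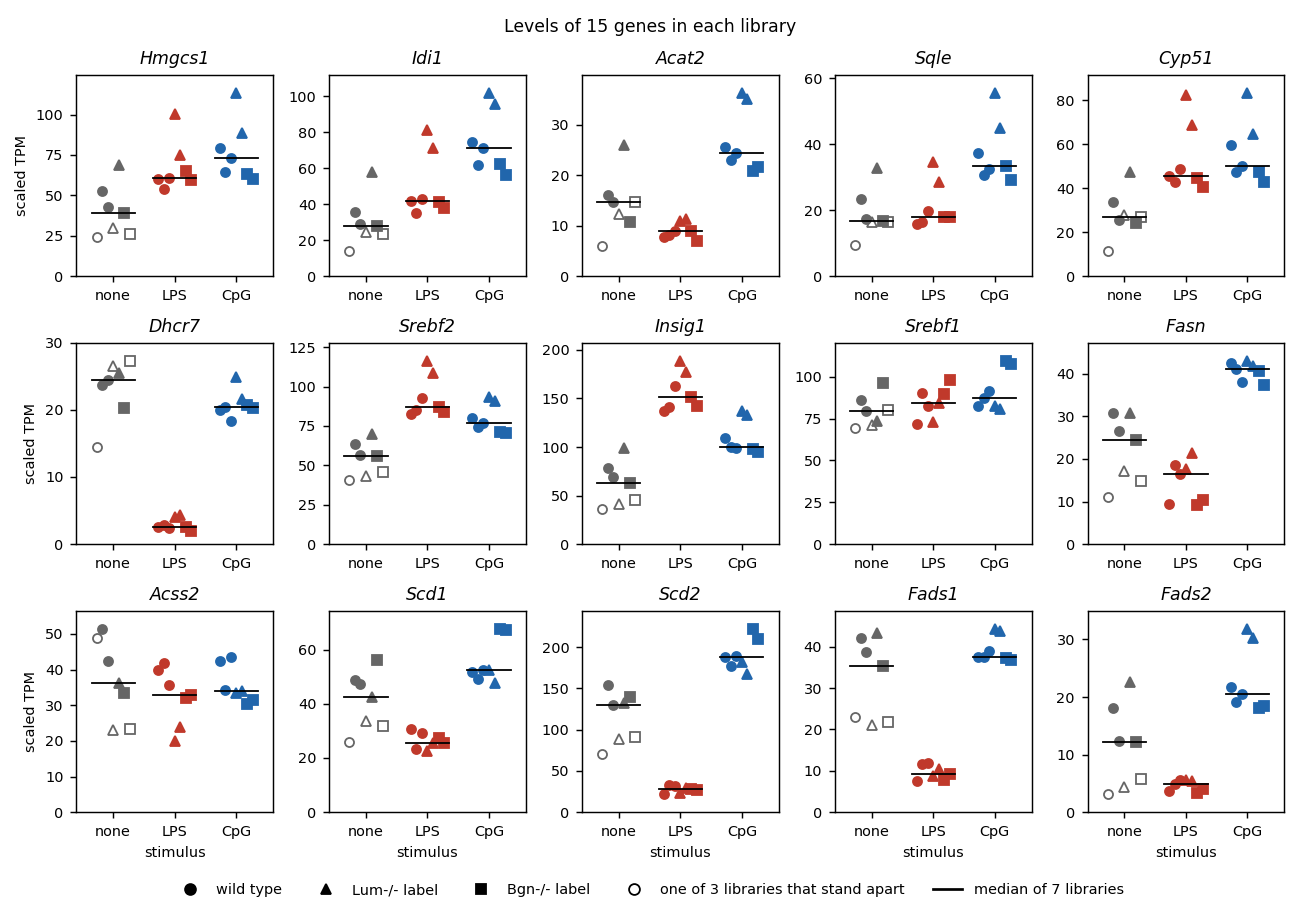
Scaled TPM of 15 genes in each of the 21 libraries by stimulus, with shape for the genotype label, open symbols for the 3 libraries that stand apart and a line for the median of 7. Dhcr7, Scd2 and Fads1 are low in all LPS libraries, and Hmgcs1, Idi1 and Cyp51 are spread widely without stimulus, with the open symbols at the low end.

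Ratios of TPM between genes of the same library show the split within the pathway without any scaling between libraries. The pairs were chosen after values were seen and are given as a description. Hmgcs1 to Mvk, both in the mevalonate steps, was 1.5 to 3.30 without stimulus, 8.6 to 12.5 after LPS and 3.40 to 4.72 after CpG. Sc5d to Dhcr7, enzymes of successive late steps, was 0.935 to 2.13, 17.9 to 25.7 and 2.16 to 3.52 in the same order. Srebf2 to Mvd was 0.924 to 1.2, 3.33 to 4.49 and 1.12 to 1.38, and Srebf1 to Scd2 was 0.552 to 0.989, 2.62 to 3.66 and 0.437 to 0.511. In all 4 pairs the LPS range lies above both others. Sums over a branch, unlike these ratios, depend on the scale. Fatty acid genes held 280 to 322 scaled TPM after LPS, 619 to 693 after CpG and 390 to 602 without stimulus, with no overlap. Sterol genes held 793 to 1389, 951 to 1626 and 398 to 1133, and overlapped. On TPM as deposited, the fatty acid sums after CpG and without stimulus overlap, and those after LPS stay below both.

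Srebf1 was read from 12 transcripts. Srebf1-201 held 41.2% of the gene's TPM over all libraries, Srebf1-207 17.7%, Srebf1-210 16.6% and Srebf1-206 6.66%, and the others at most 4.02% each. Srebf1-201 lay at 24.7 to 40.1 scaled TPM without stimulus, 32.6 to 38.4 after LPS and 34.9 to 40.1 after CpG. Srebf1-207 lay at 11.5 to 16.5, 11.2 to 13.9 and 11.7 to 22.4, and Srebf1-210 at 7.2 to 22.4, 9.17 to 20.5 and 6.94 to 20.6. For each of the 3 transcripts the ranges of the stimuli overlap.

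Libraries labelled Lum-/- held 11 of 21 sterol genes at a higher level than wild type under the same treatments. No other of the 30 genes tested was higher, and Acss2 was lower (12 called), against 4.43% of all genes called in either direction. All 21 sterol genes had a positive fitted difference, with a median of 0.54, and 19 were higher in all 6 matched treatments, against 6.68% of all genes, the exceptions being Tm7sf2 and Ebp. The median in the fatty acid branch was -0.01 and over all genes 0.00. The label cannot be told apart from the cell preparation, and Lum RNA was higher under it than in wild type.

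Sqle lay at 16.4 scaled TPM untreated, 34.6 after LPS and 55.5 after CpG in the libraries labelled Lum-/-, and at 9.32, 15.9 and 37.3 in wild type. With lumican, it lay at 32.7 unstimulated, 28.5 after LPS and 44.8 after CpG with the label, and at 23.4, 16.5 and 30.7 in wild type. All 6 pairs were higher with the label (0.65, SE 0.11, adjusted p 7.69e-03). Hsd17b7, a 3-ketosterol reductase, had the largest difference (0.75, SE 0.13, adjusted p 5.58e-03). It lay at 4.29, 12.6 and 15 with the label against 2.18, 4.44 and 8.32 in wild type for no stimulus, LPS and CpG, and with lumican at 7.32, 10.8 and 12.5 against 5.64, 4.76 and 8.20. Idi1 lay at 24.3, 81.5 and 102 with the label against 14.2, 41.7 and 74.3 in wild type without protein (0.67). The LPS pair is the widest of the 3 for Hsd17b7 and Idi1. Lss (0.69), Cyp51 (0.65), Pmvk (0.55), Stard4 (0.55), Acat2 (0.54), Msmo1 (0.54), Nsdhl (0.41) and Dhcr7 (0.37) were also higher.

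Acss2 lay lower in libraries labelled Lum-/- in 6 of 6 pairs (-0.62, SE 0.13, adjusted p 0.0161). Without protein it lay at 23.1, 19.8 and 33.5 with the label and at 48.9, 39.8 and 42.6 in wild type, for no stimulus, LPS and CpG. With lumican and CpG the pair was near equal, at 33.9 against 34.2. The most abundant Acss2 transcript alone was not called for the label (-0.18, limma adjusted p 0.231). The count of called genes varied with single libraries. It was 3 without the LPS library labelled Lum-/-, with or without lumican, or without the wild-type LPS and lumican library. It was 5 without the CpG library labelled Lum-/-, 7 without the lumican-alone library labelled Lum-/- or that of wild type, and 21 without the untreated library labelled Bgn-/-. Sqle and Hsd17b7 kept the call in all 21 such fits. The count over all genes tested also moved in these fits, from 522 to between 220 and 719. Absorbance ratios of the RNA, a measure of purity, set apart the library labelled Lum-/- with CpG alone and that with LPS and lumican. For these the lower ratio was 0.13 and 0.2, against 1.21 to 4.91 in all other libraries. The other ratio was 2.17 and 2.13, within the 2.07 to 2.2 of all libraries. The part of RNA purity in the difference by label was not tested. Without the 3 libraries that stand apart 22 of the 30 were called, 21 of them higher, against 11.5% of all genes. Mast cell genes summed to a median of 16.5 TPM in the libraries labelled Lum-/-, 13.6 in those labelled Bgn-/- and 102 in wild type. Their part was not tested.

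**Figure D5:**
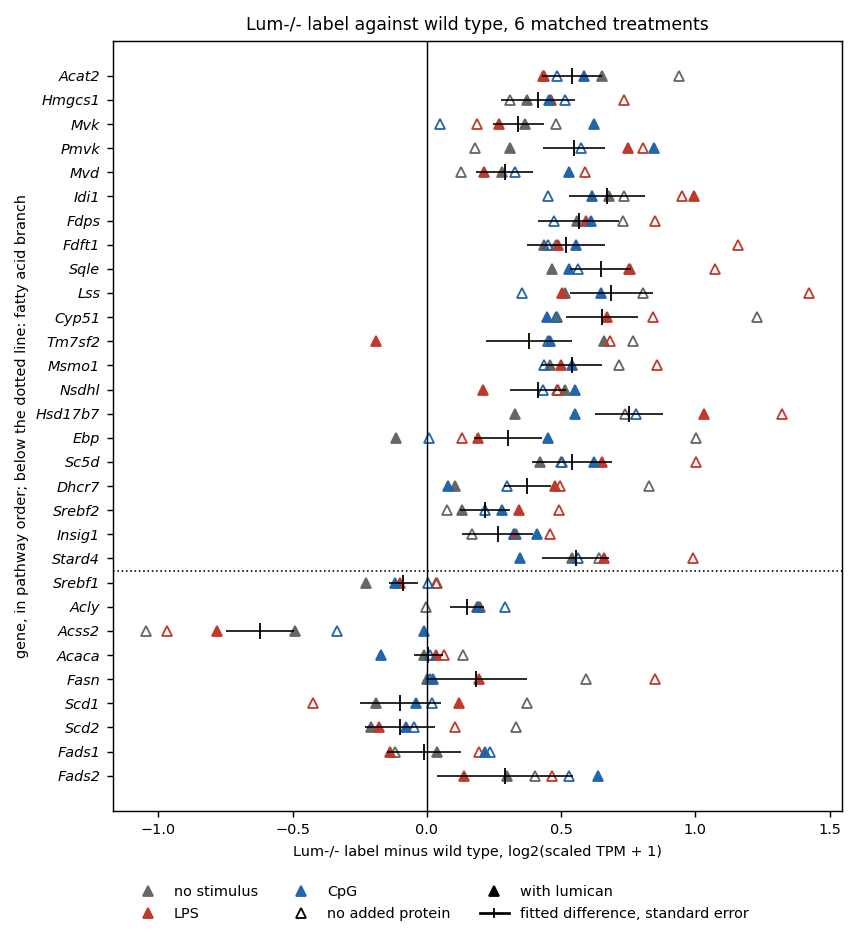
Each triangle is 1 of 6 matched treatments, as the log2 difference of the library labelled Lum-/- minus the wild-type library, coloured by stimulus and open without protein, with the fitted difference and its standard error as a black mark. All 21 sterol genes have a fitted difference above 0, and Acss2 lies below 0 in 6 of 6 treatments.

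Between libraries labelled Bgn-/- and wild type, 0 of the 30 genes passed an adjusted p under 0.05 (limma), against 0.272% of all genes called. At an unadjusted p under 0.05, 3 of the 30 and 923 of all 11773 genes tested differed. The 3 were Srebf1 (0.27, adjusted p 0.0779), Acaca and Acss2. Srebf1 lay at 96.5, 89.7 and 109 scaled TPM untreated, with LPS and with CpG under the label, and at 69.4, 71.5 and 82.2 in wild type. With biglycan, it lay at 80.3, 98.2 and 107 under the label and 79.8, 82.5 and 91.5 in wild type, so 6 of 6 pairs were higher, the unstimulated biglycan pair only narrowly. Without the 3 libraries that stand apart, Srebf1 was called higher (0.28, adjusted p 0.0170) and Fdps lower (-0.32, adjusted p 0.0292).

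In the LPS and CpG wells, added lumican changed 0 of the 30 genes and 0% of all genes at an adjusted p under 0.05 (limma), and 0 of the 30 and 1033 of all genes at an unadjusted p under 0.05. With lumican 8 of the 30, all sterol genes, were lower in all 4 matched pairs and 0 higher, against 13.3% and 10% of all genes. Of these, Hmgcs1 differed by -0.26 (adjusted p 0.731) and Tm7sf2 by -0.31 (adjusted p 0.722). In unstimulated wells, where no dose or time is given for the protein, the summed sterol branch was 398 scaled TPM in wild type without protein, 848 with lumican and 720 with biglycan. It was 596 without and 1133 with lumican under the Lum-/- label, and 647 without and 590 with biglycan under the Bgn-/- label. The values of 398, 596 and 590 come from the 3 libraries that stand apart. Added biglycan likewise changed 0 of 30 and 0% of all genes, with 1 of the 30, Acaca (0.16), and 901 of all genes at an unadjusted p under 0.05. The difference between LPS and CpG was also compared between each label and wild type by the interaction test. It called 0 of the 30 genes for either label, and 0% of all genes for the Lum-/- label and 0% for the Bgn-/- label. At an unadjusted p under 0.05, 1 of the 30 (Acss2) and 433 of all genes differed for the Lum-/- label, and 0 of the 30 and 700 of all genes for the Bgn-/- label. A p that misses the threshold here does not show that responses are alike.

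Of 30 other genes of lipid metabolism, listed by pathway, 25 were tested. Between LPS and CpG 8 were higher and 13 lower after LPS (36.3% and 37% of all genes), with a median of -0.17. Named by the size of that difference, Lpin1, a phosphatidate phosphatase, was lower by -2.07, at 0.196 to 0.595 scaled TPM after LPS and 3.76 to 5.86 after CpG. Also lower were the elongase Elovl5 (-1.03), the acyltransferase Gpam (-0.99), which starts glycerolipid synthesis, and Soat1 (-0.97), which esterifies cholesterol. Agpat2 (1.01), a further glycerolipid acyltransferase, the acyl-CoA synthetase Acsl5 (0.83) and the lysosomal cholesterol carrier Npc2 (0.73) were higher on scaled TPM. As deposited, Npc2 lay at 379 to 515 TPM after LPS and 365 to 553 after CpG. Acsl5 lay at 139 to 165 and 129 to 179, so both genes overlapped widely. Agpat2 lay at 56.5 to 72.0 and 50.5 to 58.9. The calls in this paragraph are all on scaled TPM. Against no stimulus 10 rose and 11 fell with LPS, beside 38.9% and 38.4% of all genes, and 10 rose and 4 fell with CpG, beside 17.8% and 17.5%. With the Lum-/- label 0 of the 25 were called, beside 4.43% of all genes, and with the Bgn-/- label 1, beside 0.272%.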

How the data were processed

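RNA was measured in 21 libraries made with a stranded TruSeq kit and read on an Illumina HiSeq instrument, per the labels' protocols. The authors deposited TPM per transcript, normalized within each library to a sum of 1000000, and used kallisto 0.44.0, bcl2fastq 1.8.4 and the build GRCm38, per the submitters' processing notes. The table holds 89562 transcripts. Of 6774 without a gene name, 5423 were named by transcript ID from GENCODE M21 and 1351 were left out. TPM was summed to 23569 genes and divided by median-of-ratios factors over 11205 genes. A deposited column sums each transcript's signal over the libraries, by the authors, and was not used. Such values keep no counts, so no count test or interval was possible.

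The 11773 genes whose mean reached 1 TPM entered the test on log2(scaled TPM + 1) with limma 3.58.1 in R 4.3.3 (lmFit, eBayes with trend, two-sided, Benjamini-Hochberg over all genes tested, threshold 0.05). The fit was additive in genotype label and the 9 treatments. Stimulus differences average over the 3 protein levels, protein differences over the LPS and CpG wells, and interactions compare LPS minus CpG between genotype labels. The tests were checked on simulated data. Alternatives were pseudocounts of 0.1 and 5, no filter, TPM as deposited, quantile normalization, the most abundant transcript of each gene, wells without protein only, and leaving out each library or the 3 that stand apart. TPM as deposited without those 3, and a fit of stimulus with each genotype and protein combination as a block, were added after seeing the data.

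The genes and lists were chosen with earlier results of these data known. Values per library are given for Hmgcs1, Idi1, Sqle, Insig1, Srebf2, Srebf1, Fasn, Scd1 and Scd2, and for the largest and smallest further LPS to CpG differences of each branch (Dhcr7, Acat2, Cyp51; Fads2, Fads1, Acss2). Hsd17b7 was added after its values were seen. Other pathway genes named are from the 8 with the largest such difference, of which 1 is not reported here. Tables and figures were made in Python 3.11.15 with numpy 2.4.6, pandas 2.3.3 and matplotlib 3.10.9.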

Additional observations from a re-analysis of the deposited data

How the results depend on the processing

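Directions against LPS rest on the scale between libraries. On TPM as deposited, LPS against no stimulus gave 1 gene higher and 22 lower, beside 14% and 71.6% of all genes. Without the 3 libraries that stand apart it gave 1 and 28. On scaled TPM the counts were 9 and 14, beside 38.9% and 38.4%. Counts in this section without a share of all genes beside them cannot be read against it. The differences turned to -0.10 for Hmgcs1, -0.14 for Idi1, -0.29 for Fdps, -0.24 for Msmo1, -0.25 for Hsd17b7 and -0.0471 for Srebf2. Without the 3 libraries as well, they were -0.39 for Hmgcs1, -0.39 for Idi1, -0.56 for Fdps, -0.0873 for Cyp51, -0.45 for Msmo1, -0.42 for Hsd17b7, -0.17 for Sc5d and -0.21 for Srebf2. Quantile normalization turned Fdps to -0.13. Wells without protein alone turned Nsdhl to 0.0144 and gave 13 genes higher, with Sqle, Fdft1, Stard4 and Pmvk gained, and 8 lower. There Hmgcs1 rose by 1.24, Idi1 by 1.25 and Fdps by 1.08. Between LPS and CpG, Srebf2 turned to -0.54 and Insig1 to -0.26 on TPM as deposited, with or without the 3 libraries, and to -0.225 and -0.0687 after quantile normalization. The count of genes higher after LPS than after CpG, 2 on scaled TPM, was 0 under each of these 3 settings and in wells without protein. It was 1 with no filter and 1 with the most abundant transcript, and 1 to 3 when each library was left out in turn. The count lower with CpG than without stimulus was then 0 to 1. For the Lum-/- label, 12 genes (beside 4.43% of all genes) became 22 without the 3 libraries (beside 11.5%). They became 20 on TPM as deposited without those libraries, and 3 to 21 when each library was left out. For the Bgn-/- label, 0 became 2, 2 and 0 to 1. The causes were not tested. With each library left out in turn, 1614 values of genes called in the main fit kept their direction and call, 129 lost the call and 0 turned. Calls gained by other genes are not in these counts. Pseudocounts of 0.1 and 5 took the call from 1 and 0 of the values called in the main fit. Replicate numbers pair no libraries, since each combination has 1. With the 7 combinations of genotype label and protein as a block, added after seeing the data, 9 genes were higher and 14 lower for LPS against no stimulus, 24 and 0 for CpG, and 2 and 23 for LPS against CpG, and Acaca lost its call for CpG. The genotype fit already matches treatments. Depth is not given by TPM, so no limit from it can be stated.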
